A study of Mus musculus with 12 samples.

Results

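The ATF4 amino acid stress response was followed in mouse liver through 39 genes, listed by symbol and taken as a group. They are the *Atf4* transcription factor gene, kinases that act upstream of it, its partners and targets, enzymes of serine, asparagine and one-carbon metabolism, amino acid transporters and cytosolic aminoacyl-tRNA synthetases. All 39 were found among the 35275 genes of the expression table. Levels are in FPKM, a fragment count corrected for gene length and library depth, and the 34 genes with a mean of at least 0.5 FPKM over the 12 libraries were tested. The libraries were made from whole livers of wild-type (WT) mice and of *Pctp*-/- mice, which lack the phosphatidylcholine transfer protein PC-TP in the whole body, fed chow or a methionine and choline-deficient (MCD) diet. The 4 groups, WT on chow, *Pctp*-/- on chow, WT on MCD and *Pctp*-/- on MCD, held 3 mice each, and 1 library was made from each mouse. The labels give no strain, sex, age or time on the diet, and no agent or allele that the groups share. Because the deletion is in every cell type and the tissue is whole liver, a level reflects all liver cells together, and fewer cells of a type cannot be told apart from less RNA per cell.

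When a cell runs short of amino acids or its endoplasmic reticulum is stressed, the kinases GCN2 (*Eif2ak4*) and PERK (*Eif2ak3*) phosphorylate the initiation factor eIF2alpha. This slows protein synthesis in general and favours translation of the *Atf4* mRNA. The ATF4 protein pairs with C/EBP proteins such as the product of *Cebpg* and binds composite elements in genes for amino acid synthesis, uptake and tRNA charging. It also switches on further factors, among them CHOP (*Ddit3*), and feedback genes. Since ATF4 is largely set by translation, the mRNA of *Atf4* is only one reading of the pathway. An MCD diet removes an essential amino acid, methionine, together with choline.

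Uniquely mapped reads ran from 30486576 to 55179468 per library. The mapping and quality measures of the libraries went with diet, and 10 of 11 measures given as shares did not overlap between the chow and the MCD libraries. Uniquely mapped reads made up 77.6 to 79.4% of the reads in each chow library and 85.7 to 87.5% in each MCD library. Diet and sequencing therefore cannot be told apart in any comparison of the diets. *Pctp* itself stood at 1.21 to 7.90 FPKM in the WT livers (1.21 to 2.65 on chow, 3.61 to 7.90 on MCD) and at 0.156 to 0.566 FPKM in the *Pctp*-/- livers. All 10 hepatocyte markers were present in every group. The test was limma on log2(FPKM + 1) over 12466 genes, with Benjamini-Hochberg adjustment over all of them. A gene was called at an adjusted p under 0.05. Log2 fold changes are on that scale, on which genes of low FPKM appear to change less than they do.

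Promoters were searched for the element through which ATF4 and its partners act, the C/EBP-ATF response element, written here as TGATGNAA, where N is any base, on both strands (TTNCATCA on the other). Promoter windows of 250 bases before to 50 bases after the start were taken from RefSeq on GRCm38.p6. Of the 32 genes of the group with a window, 13 (40.6%) held the element, against 4.51% of 27025 genes with a window. Because the group was listed in part as targets of ATF4, this contrast describes the list and does not test it. It was in 7 of the 17 with a window that were called higher on MCD in WT livers and in 6 of the 15 others. The palindromic cAMP response element TGACGTCA, which no stretch matching the former can also match, was in the windows of 1 of the 32 genes, *Ppp1r15a*, and of 2.03% of all genes. The windows of *Nupr1*, *Asns*, *Trib3*, *Pck2* and *Gars* are shown. Among called genes with a match, these had the largest absolute log2 fold changes of diet in WT livers. *Vldlr* (0.68) and *Yars* (0.37), also called with a match, are not shown. The match to the element is in capitals, and each is written in the direction of the gene. The bases before the start are given for 4 of them, and for *Trib3*, whose match begins at base 15 of the transcript, a stretch of 30 bases. The matches begin 110 (*Nupr1*), 23 (*Asns*), 103 (*Pck2*) and 30 (*Gars*) bases before the RefSeq start. A match is a description of the letters and not a measurement of binding.
Nupr1, chr7:126625471-126625720, minus strand: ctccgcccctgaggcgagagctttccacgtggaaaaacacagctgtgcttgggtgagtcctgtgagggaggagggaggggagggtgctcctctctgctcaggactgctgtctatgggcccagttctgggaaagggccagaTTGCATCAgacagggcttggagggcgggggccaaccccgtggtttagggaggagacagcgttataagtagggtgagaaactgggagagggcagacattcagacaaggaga
Asns, chr6:7693210-7693459, minus strand: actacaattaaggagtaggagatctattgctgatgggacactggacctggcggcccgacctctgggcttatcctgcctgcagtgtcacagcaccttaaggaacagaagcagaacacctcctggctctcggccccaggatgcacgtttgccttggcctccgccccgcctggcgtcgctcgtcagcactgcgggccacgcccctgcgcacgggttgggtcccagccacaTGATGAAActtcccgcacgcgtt
Trib3, chr2:152344028-152344057, minus strand: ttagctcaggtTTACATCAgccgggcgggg
Pck2, chr14:55540016-55540265, plus strand: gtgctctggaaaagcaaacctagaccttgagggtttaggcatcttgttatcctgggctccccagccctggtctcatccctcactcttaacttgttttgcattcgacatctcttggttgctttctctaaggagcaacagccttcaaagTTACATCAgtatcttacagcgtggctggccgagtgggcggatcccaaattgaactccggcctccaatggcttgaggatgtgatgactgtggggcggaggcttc
Gars, chr6:55037751-55038000, plus strand: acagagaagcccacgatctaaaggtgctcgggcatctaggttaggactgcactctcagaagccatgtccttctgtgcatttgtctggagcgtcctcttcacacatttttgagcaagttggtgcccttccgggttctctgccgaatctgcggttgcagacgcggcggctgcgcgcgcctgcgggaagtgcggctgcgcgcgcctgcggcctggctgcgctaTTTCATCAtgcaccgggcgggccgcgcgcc

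The first question was how the response differed between MCD and chow livers of each genotype. In WT livers, 22 of the 34 tested genes were called, 20 higher and 2 lower on MCD. Much of the transcriptome differed between the MCD and chow libraries, 57.0% of all tested genes being called, 34.5% higher and 22.5% lower. The number of calls in the group was thus near the background while their direction was mostly upward. The median log2 fold change of the tested genes of the group was 0.67, against 0.11 for all tested genes. Median-of-ratios scaling, which moved the median of all genes by about that amount to 0.01, gave 20 higher and 6 lower, and quantile normalization gave 20 higher and 5 lower. The shares of all genes called under these scalings are not given here, and the 34.5% and 22.5% belong to the fit without them. Of the 34, 3 (*Nupr1*, *Asns* and *Psat1*) passed the filter on low values only through the MCD livers, and among the 31 at 0.5 FPKM or more in every group 17 were called higher and 2 lower. In *Pctp*-/- livers, 26 of the 34 were called, 16 higher and 10 lower, where 50.3% of all genes were called, 26.0% higher and 24.4% lower. The median there was 0.34 against 0.04 for all genes, and among the 31 it was 0.07, with 13 called higher and 10 lower. In both genotypes, 16 genes of the group rose (22.6% of all genes rose in both) and 2, *Ppp1r15a* and *Shmt2*, fell (18.1% of all genes).

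**Figure D1:**
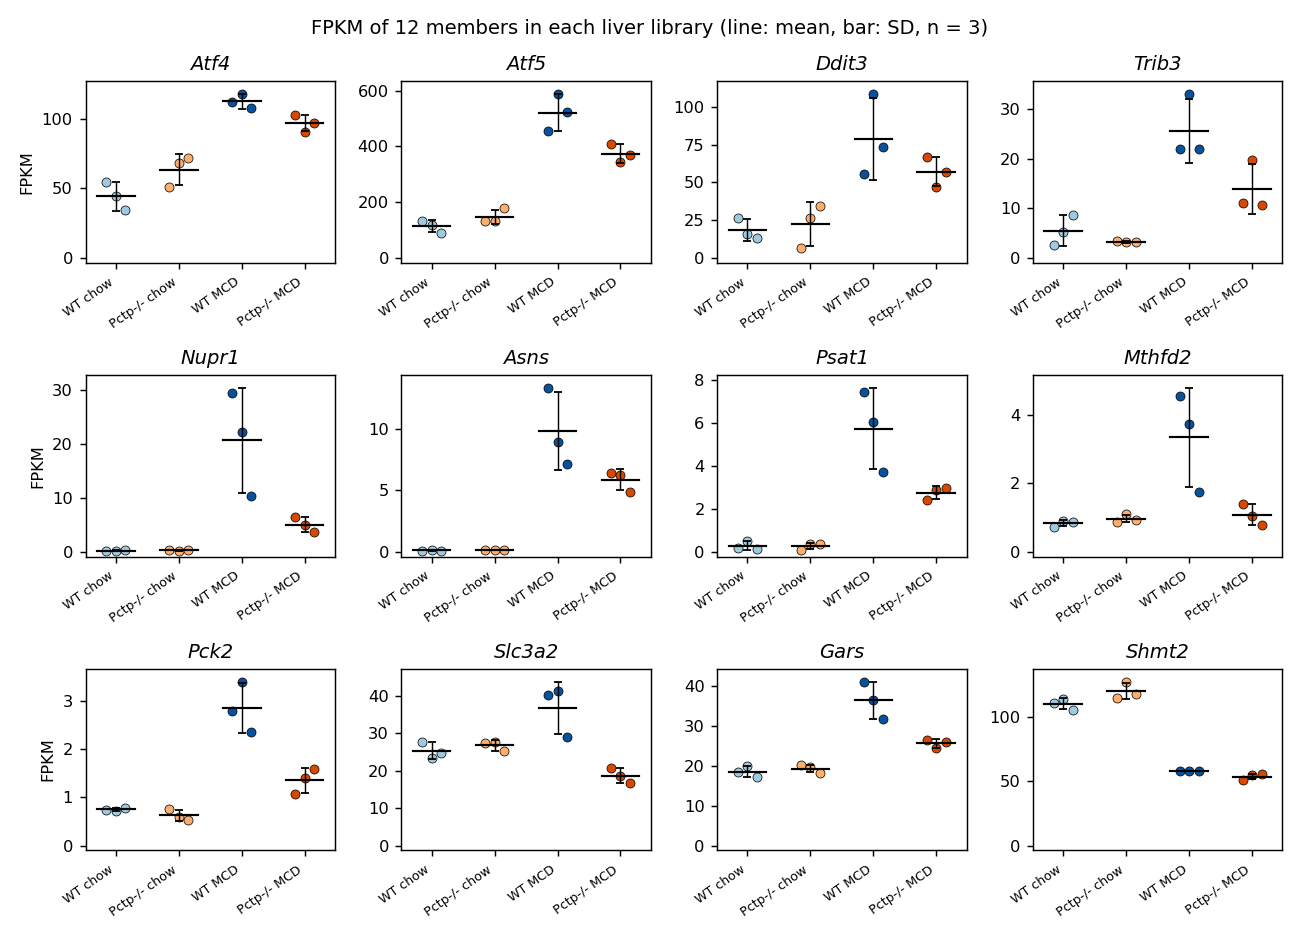
FPKM (linear axis) of 12 genes of the response in each liver library, with 1 point per mouse, the group mean as a line and the SD (n = 3) as a bar. Asns and Nupr1 lay at 0.367 FPKM or less in each chow library and at 3.60 FPKM or more in each MCD library, Slc3a2 rose above chow in WT livers and fell below it in Pctp-/- livers, and Shmt2 was lower on MCD in both genotypes.

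*Atf4* (ENSMUSG00000042406, chromosome 15, 80255184 to 80257541, plus strand, GRCm38) had 54.7, 44.3 and 34.2 FPKM in the WT livers on chow and 112, 118 and 108 FPKM on MCD. In *Pctp*-/- livers it had 50.9, 68.1 and 71.7 FPKM on chow and 103, 90.9 and 97.4 FPKM on MCD. The MCD livers were above the chow livers of their genotype without overlap, while the chow livers of the genotypes overlapped, and on MCD each *Pctp*-/- liver was below each WT liver. The log2 fold change of diet was 1.35 (adjusted p = 2.4e-05 from limma, standard error 0.16) in WT and 0.62 (adjusted p = 0.0067, standard error 0.16) in *Pctp*-/- livers.

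Of the 7 transcription factor and feedback genes, 6 rose in WT and the same 6 in *Pctp*-/- livers, and *Atf3* was the one that did not pass. Among all tested genes, 34.5% were called higher in WT and 26.0% in *Pctp*-/- livers. *Atf5* is a relative of *Atf4* that is itself translated under stress. It had the highest FPKM of the 7 on the group means, with 134, 118 and 90.9 in WT chow, 134, 134 and 178 in *Pctp*-/- chow, 454, 587 and 524 in WT MCD and 410, 344 and 369 in *Pctp*-/- MCD livers. The diets did not overlap in either genotype, and the log2 fold change was 2.19 (adjusted p = 5.8e-07 from limma) in WT and 1.34 (adjusted p = 3.1e-05) in *Pctp*-/- livers. *Ddit3*, the gene of CHOP, had 26.5, 15.7 and 13.2 FPKM in WT chow, 6.31, 26.4 and 34.3 in *Pctp*-/- chow, 55.3, 109 and 73.3 in WT MCD and 66.8, 47.3 and 57.2 in *Pctp*-/- MCD livers. The mice of a group were scattered, yet the diets did not overlap within a genotype. The log2 fold changes were 2.05 (adjusted p = 0.0030) in WT and 1.58 (adjusted p = 0.015) in *Pctp*-/- livers. The latter was 0.89 without *Pctp*-/- chow replicate 1, and its call was lost without *Pctp*-/- MCD replicate 1 (1.47) and with a correction for GC content and length (1.19). *Cebpg*, a partner of ATF4, rose from 13.8 ± 2.44 to 24.0 ± 0.673 FPKM (SD, n = 3) in WT and from 12.3 ± 0.616 to 20.8 ± 1.94 FPKM (SD, n = 3) in *Pctp*-/- livers.

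*Nupr1* (ENSMUSG00000030717, chromosome 7, 126623249 to 126630861, minus strand), a small stress-induced nuclear protein, had the largest log2 fold change of the group in WT livers. It was near 0 on chow, with 0.12, 0.122 and 0.237 FPKM in WT and 0.284, 0.0623 and 0.367 FPKM in *Pctp*-/- livers. On MCD it reached 29.5, 22.2 and 10.3 FPKM in WT and 6.47, 4.95 and 3.60 FPKM in *Pctp*-/- livers. The chow groups overlapped, and on MCD each *Pctp*-/- liver was lower than the lowest WT liver. The log2 fold change of diet was 4.11 (adjusted p = 5.5e-07 from limma, standard error 0.29) in WT and 2.26 (adjusted p = 6.3e-05, standard error 0.29) in *Pctp*-/- livers. *Trib3*, a pseudokinase that feeds back on ATF4 and CHOP, had 2.66, 5.16 and 8.72 FPKM in WT chow, 3.51, 3.16 and 3.21 in *Pctp*-/- chow, 21.9, 33.0 and 21.9 in WT MCD and 11.2, 19.7 and 10.7 in *Pctp*-/- MCD livers. The diets did not overlap within a genotype, and it rose by 2.12 in WT and by 1.74 on the log2 scale in *Pctp*-/- livers (adjusted p = 1.2e-04 and 6.1e-04 from limma). *Atf3*, a stress-inducible repressor, spread from 3.07 to 23.5 FPKM among the WT livers on chow, and its diet effect of 1.04 did not pass (adjusted p = 0.13). In *Pctp*-/- livers the diets did not overlap, but the effect of 1.12 did not pass either (adjusted p = 0.11).

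Of the 9 genes for amino acid and one-carbon enzymes, 7 were tested. In WT livers 4 rose and 1 fell, where 34.5% of all tested genes were called higher and 22.5% lower. In *Pctp*-/- livers 3 rose and 3 fell, where 26.0% of all tested genes were called higher and 24.4% lower. *Asns* (ENSMUSG00000029752, chromosome 6, 7675169 to 7693254, minus strand), the asparagine synthetase, had 0.0834, 0.148 and 0.0959 FPKM in WT chow and 0.123, 0.113 and 0.137 FPKM in *Pctp*-/- chow livers. On MCD it had 13.3, 8.92 and 7.17 FPKM in WT and 6.41, 6.28 and 4.89 FPKM in *Pctp*-/- livers. All MCD livers were far above all chow livers, by 89.8 times in WT and 47.0 times in *Pctp*-/- on the group means, and the log2 fold changes were 3.24 (adjusted p = 7.3e-08 from limma) and 2.60 (adjusted p = 4.3e-07).

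The serine pathway did not move as a block. *Psat1*, the transaminase of that pathway, had 0.177, 0.514 and 0.123 FPKM in WT chow, 0.0950, 0.350 and 0.344 in *Pctp*-/- chow, 7.44, 6.06 and 3.69 in WT MCD and 2.42, 2.89 and 2.95 in *Pctp*-/- MCD livers. It rose without overlap of the diets, by 2.38 in WT and 1.58 in *Pctp*-/- livers on the log2 scale (adjusted p = 1.7e-06 and 4.9e-05 from limma). *Phgdh*, which encodes the first enzyme of the pathway, stayed between 0.0555 and 0.363 FPKM in all 12 libraries and was not tested. *Psph*, the last enzyme, had 2.23 ± 0.0751 FPKM on chow and 1.86 ± 0.220 FPKM on MCD in WT livers (SD, n = 3), a difference that did not pass (log2 fold change -0.18, adjusted p = 0.20). It fell by 0.42 on the log2 scale in *Pctp*-/- livers (adjusted p = 0.0072 from limma).

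The mitochondrial one-carbon enzymes moved in opposite directions in WT livers. *Mthfd2*, the methylenetetrahydrofolate dehydrogenase, had 0.726, 0.896 and 0.865 FPKM in WT chow, 0.882, 1.10 and 0.929 in *Pctp*-/- chow, 4.56, 3.74 and 1.74 in WT MCD and 1.40, 1.06 and 0.793 in *Pctp*-/- MCD livers. It rose in WT livers without overlap (1.19 on the log2 scale, adjusted p = 5.3e-04 from limma), whereas in *Pctp*-/- livers the diets overlapped (0.07, adjusted p = 0.80). *Shmt2*, the mitochondrial serine hydroxymethyltransferase, had 111, 114 and 106 FPKM in WT and 115, 128 and 118 FPKM in *Pctp*-/- livers on chow. On MCD it had 58.3, 58.2 and 58.3 FPKM in WT and 51.2, 54.5 and 55.5 FPKM in *Pctp*-/- livers. Each MCD liver was below each chow liver, and the gene fell by 0.91 in WT and by 1.15 on the log2 scale in *Pctp*-/- livers (adjusted p = 1.6e-06 and 3.9e-07 from limma). *Pck2* (ENSMUSG00000040618, chromosome 14, 55540266 to 55551242, plus strand), the mitochondrial phosphoenolpyruvate carboxykinase, had 0.742, 0.725 and 0.777 FPKM in WT chow, 0.760, 0.583 and 0.529 in *Pctp*-/- chow, 2.79, 3.40 and 2.36 in WT MCD and 1.06, 1.40 and 1.59 in *Pctp*-/- MCD livers. It rose in both genotypes without overlap of the diets, by 1.13 in WT and 0.53 in *Pctp*-/- livers (adjusted p = 1.7e-05 and 0.0044). *Gpt2*, the mitochondrial alanine transaminase, had a group mean of 134 FPKM on chow and 109 FPKM on MCD in WT livers (-0.31, adjusted p = 0.080). It fell by 0.50 on the log2 scale in *Pctp*-/- livers (adjusted p = 0.011).

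*Slc3a2* (ENSMUSG00000010095, chromosome 19, 8706882 to 8723369, minus strand), the heavy chain shared by several heteromeric amino acid transporters, was the one gene of the group called in opposite directions. Its FPKM was 27.8, 23.3 and 24.6 in WT chow, 27.3, 27.7 and 25.2 in *Pctp*-/- chow, 40.2, 41.4 and 28.9 in WT MCD and 20.6, 18.5 and 16.6 in *Pctp*-/- MCD livers. On chow the genotypes overlapped, while all WT livers were higher and all *Pctp*-/- livers lower on MCD than on chow. The log2 fold change was 0.51 (adjusted p = 0.0060 from limma, standard error 0.13) in WT and -0.50 (adjusted p = 0.0077, standard error 0.13) in *Pctp*-/- livers. *Slc7a5*, a light chain that pairs with it, lay between 0.620 and 1.27 FPKM and did not pass in either genotype (0.16, adjusted p = 0.34, and -0.16, adjusted p = 0.34).

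Of the 2 kinases, *Eif2ak3* rose from 7.05 ± 1.91 to 11.9 ± 1.61 FPKM in WT livers (SD, n = 3, log2 fold change 0.70, adjusted p = 0.0073 from limma). In *Pctp*-/- livers it rose from 6.70 ± 1.79 to 9.67 ± 0.827 FPKM (SD, n = 3, 0.49, adjusted p = 0.046). *Eif2ak4* had 2.47 ± 0.258 and 2.51 ± 0.246 FPKM in WT livers on chow and MCD (SD, n = 3, log2 fold change 0.02, adjusted p = 0.93). It fell from 2.69 ± 0.363 to 1.94 ± 0.423 FPKM in *Pctp*-/- livers (SD, n = 3, adjusted p = 0.049). The calls in *Pctp*-/- livers were lost in 10 of the alternatives tried for *Eif2ak3* and in 13 for *Eif2ak4*. Without *Pctp*-/- chow replicate 1 the value of *Eif2ak3* was 0.30, and without *Pctp*-/- MCD replicate 2 that of *Eif2ak4* was -0.21 in place of -0.33.

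Of the 6 effectors and brakes of the response, 5 were tested. In WT livers 2 rose and 1 fell, where 34.5% of all tested genes were called higher and 22.5% lower. In *Pctp*-/- livers 1 rose and 2 fell, where 26.0% of all tested genes were called higher and 24.4% lower. *Ppp1r15a*, the phosphatase subunit GADD34 that reverses the phosphorylation of eIF2alpha, fell by 0.44 in WT and by 0.68 on the log2 scale in *Pctp*-/- livers (adjusted p = 0.035 and 0.0043 from limma). In WT livers its diets overlapped, and the call was lost in 7 alternatives, among them the correction for GC content and length, under which neither genotype passed (-0.28 and -0.36). *Sesn2*, a leucine sensor that restrains mTORC1, had 4.02 and 4.16 FPKM on average in WT livers on chow and MCD. It fell from 4.51 ± 1.01 to 2.50 ± 0.537 FPKM in *Pctp*-/- livers (SD, n = 3, log2 fold change -0.65, adjusted p = 0.016). The correction brought this to -0.07, and the call was also lost without *Pctp*-/- chow replicate 1 (-0.50) or MCD replicate 3 (-0.53). *Eif4ebp1*, the 4E-BP1 inhibitor of cap-dependent translation, rose in WT livers from 50.6 ± 2.75 to 69.7 ± 14.8 FPKM (SD, n = 3, log2 fold change 0.44, adjusted p = 0.016), a call lost without WT MCD replicate 1 (0.28) and with the correction (0.12). In *Pctp*-/- livers it had 54.8 and 47.9 FPKM on average (adjusted p = 0.27). *Vldlr*, the very low density lipoprotein receptor, rose from 1.73 to 3.35 FPKM in WT and from 1.89 to 3.16 FPKM in *Pctp*-/- livers (group means, adjusted p = 0.0097 and 0.029). Its call in *Pctp*-/- livers was lost in 6 of 20 alternatives, and without *Pctp*-/- chow replicate 2 the log2 fold change was 0.31 in place of 0.56. *Chac1*, a glutathione-degrading enzyme and CHOP target, ranged from 0.425 to 14.1 FPKM over the libraries and did not pass in WT (1.04, adjusted p = 0.051) or *Pctp*-/- livers (0.29, adjusted p = 0.58).

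**Figure D2:**
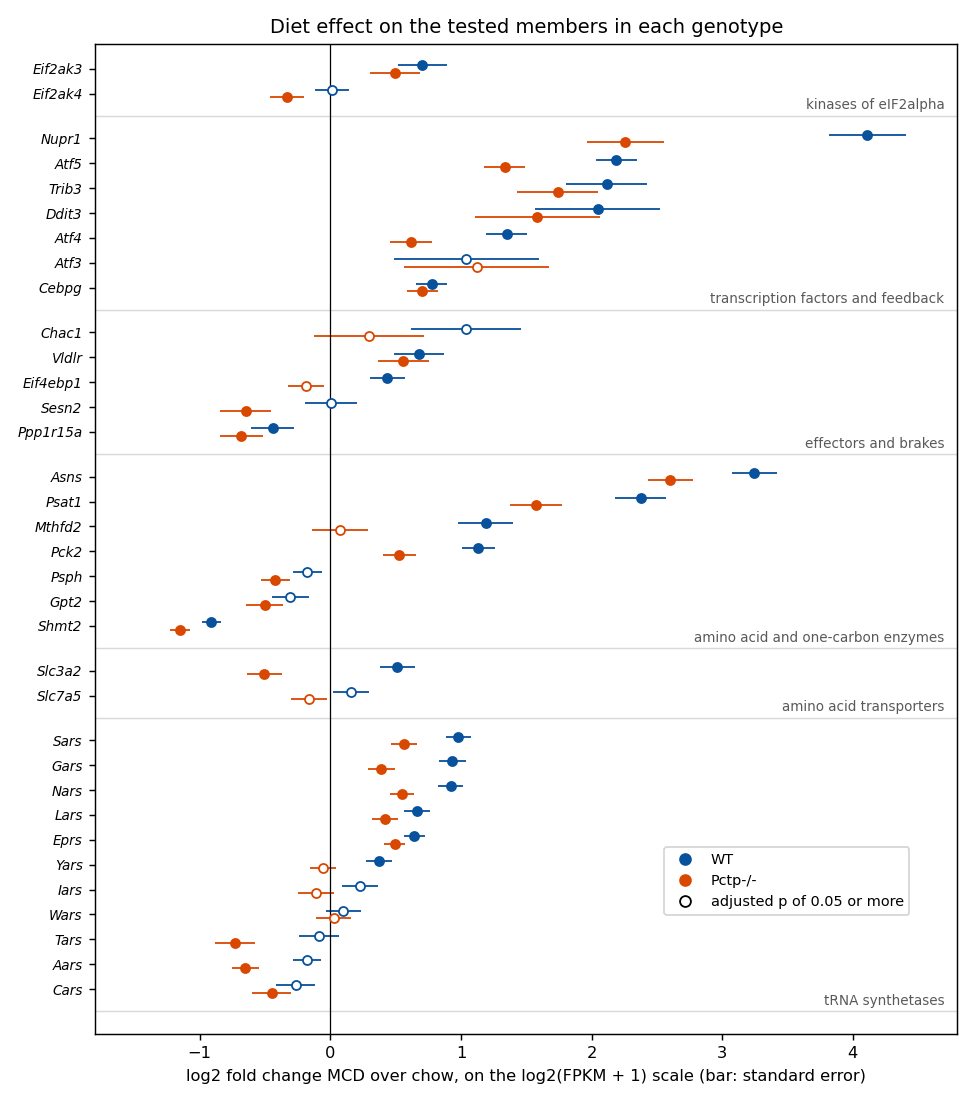
Log2 fold change of MCD over chow on the log2(FPKM + 1) scale for the 34 tested genes of the response, by role, in WT (blue) and Pctp-/- livers (orange), with the standard error as a bar and open points for an adjusted p of 0.05 or more. The points reach from -1.15 (Shmt2, Pctp-/-) to 4.11 (Nupr1, WT), and the WT point lies to the right of the Pctp-/- point for each gene except Atf3.

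The 11 cytosolic aminoacyl-tRNA synthetases, which charge tRNAs with their amino acids, did not move together. *Sars*, *Gars*, *Nars*, *Lars* and *Eprs* rose in both genotypes, by 0.64 to 0.98 in WT and 0.39 to 0.56 in *Pctp*-/- livers on the log2 scale. *Gars*, whose promoter is shown above, had 18.5, 20.0 and 17.2 FPKM in WT chow, 20.1, 19.7 and 18.3 in *Pctp*-/- chow, 41.1, 36.6 and 31.8 in WT MCD and 26.4, 24.5 and 26.2 in *Pctp*-/- MCD livers. Its diets did not overlap in either genotype, and on MCD the genotypes did not overlap either. *Yars* rose in WT livers (0.37, adjusted p = 0.0073 from limma) and had a log2 fold change of -0.06 in *Pctp*-/- livers (adjusted p = 0.65). *Aars*, *Tars* and *Cars* had log2 fold changes of -0.18, -0.09 and -0.26 in WT livers, none of which passed, and fell in *Pctp*-/- livers by 0.65, 0.73 and 0.45 (adjusted p = 2.9e-04, 0.0017 and 0.026). The call of *Cars* was lost in 5 of 21 alternatives, 4 of them without 1 of the *Pctp*-/- livers (chow replicate 2 or 3, MCD replicate 2 or 3), with -0.39 to -0.44. With a correction for GC content and length, *Aars* (-0.20) and *Cars* (-0.24) did not pass. *Wars* and *Iars* passed in neither genotype. Over the 11 genes, 6 rose and 0 fell in WT (median 0.37), and 5 rose and 3 fell in *Pctp*-/- livers (median 0.03). Of all tested genes, 34.5% were called higher and 22.5% lower in WT (median 0.11). In *Pctp*-/- livers these shares were 26.0% and 24.4% (median 0.04).

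The synthetases outside the group served as a comparison, to be read beside the same shares of all genes. Of 9 other cytosolic synthetase genes, 5 rose and 3 fell in WT, and 3 rose and 3 fell in *Pctp*-/- livers. *Vars* fell most, from 15.5 to 6.09 FPKM in WT and from 16.9 to 5.25 FPKM in *Pctp*-/- livers (group means, log2 fold changes -1.21 and -1.51). Of the 17 genes for mitochondrial synthetases, which serve protein synthesis inside the organelle, 1 rose and 6 fell in WT and 1 rose and 8 fell in *Pctp*-/- livers, with medians of -0.18 and -0.30, and the largest fall was that of *Vars2* (-1.09 and -1.33).

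**Figure D3:**
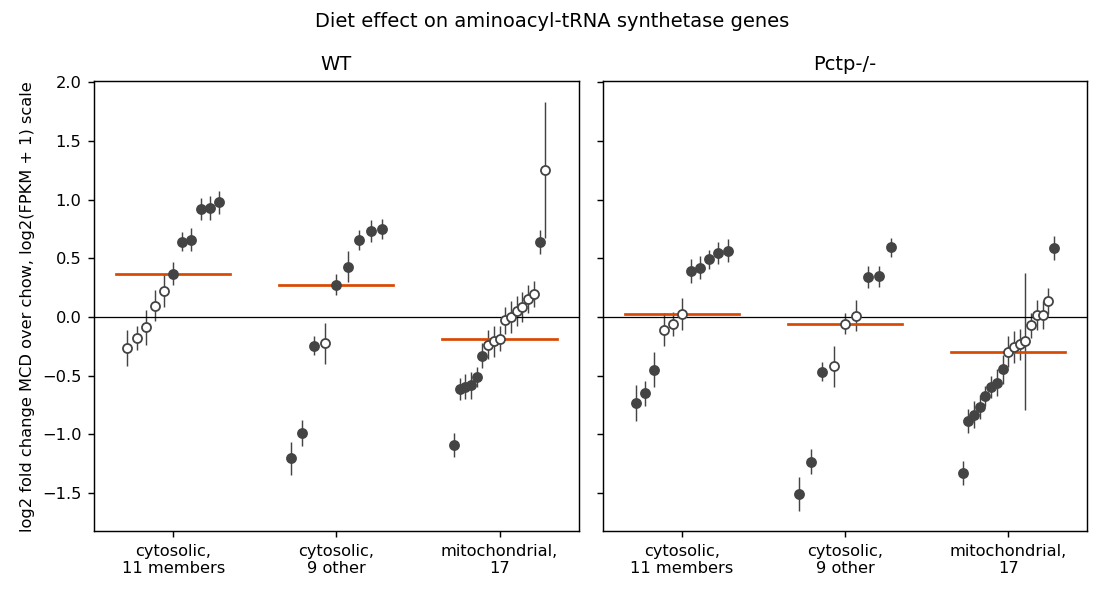
Log2 fold change of MCD over chow on the log2(FPKM + 1) scale for 37 aminoacyl-tRNA synthetase genes in WT (left) and Pctp-/- livers (right), with standard errors as bars, open points for an adjusted p of 0.05 or more and an orange line at the median of each list. The medians are 0.37, 0.28 and -0.18 in WT and 0.03, -0.06 and -0.30 in Pctp-/- livers, from the 11 genes of the response to the 9 other cytosolic and the 17 mitochondrial ones.

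Other genes of the pathway were read in the same fit, where 34.5% of all genes were called higher and 22.5% lower in WT, and 26.0% and 24.4% in *Pctp*-/- livers. Of 13 genes of the eIF2 core and its phosphatase, 5 rose and 1 fell in WT, and 2 rose and 3 fell in *Pctp*-/- livers. Of 11 tested of 12 other stress response genes, 6 rose and 2 fell in WT, and 2 rose and 2 fell in *Pctp*-/- livers. *Fgf21*, the fasting and stress hormone, rose from 3.05 ± 0.924 to 318 ± 146 FPKM in WT livers (SD, n = 3, log2 fold change 6.23). In *Pctp*-/- livers it rose from 4.63 ± 2.98 to 114 ± 27.1 FPKM (SD, n = 3, 4.48). *Cebpb*, a partner that ATF4 can bind, had log2 fold changes of -2.40 in WT and -3.25 in *Pctp*-/- livers, both called. *Ddit4*, an mTORC1 inhibitor named here after its values were seen, rose from 3.47 ± 1.07 to 82.4 ± 52.5 FPKM in WT livers (SD, n = 3, log2 fold change 4.07, adjusted p = 2.8e-05 from limma). It had 10.7 ± 4.51 and 16.5 ± 9.56 FPKM in *Pctp*-/- livers on chow and MCD (SD, n = 3, 0.49, adjusted p = 0.43). The difference of the diet effects did not pass (-3.58, adjusted p = 0.069). Among 12 further folate and one-carbon enzymes, 3 rose and 6 fell in WT and 3 rose and 5 fell in *Pctp*-/- livers. Among the falls were *Aldh1l1* (-1.40 and -1.20), the cytosolic formyltetrahydrofolate dehydrogenase, and *Sardh* (-1.56 and -1.35), the sarcosine dehydrogenase. Of 12 tested of 15 other amino acid transporters, 3 rose and 4 fell in WT, and 2 rose and 5 fell in *Pctp*-/- livers. Among them *Slc1a4*, a neutral amino acid transporter named after its values were seen, was called in opposite directions like *Slc3a2*, with log2 fold changes of 0.46 in WT (adjusted p = 0.044 from limma) and -0.57 in *Pctp*-/- livers (adjusted p = 0.020). Its difference of the diet effects did not pass (-1.03, adjusted p = 0.13).

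The second question was whether the genotype changed the response on either diet. On chow 0 of the 34 genes were called by limma, where 0.136% of all tested genes were called. An unadjusted p under 0.05 was reached by 4 of the 34 and by 6.98% of all genes. The median log2 fold change of *Pctp*-/- over WT was 0.05, against 0.01 for all genes. The 4 were *Atf4* (0.52, adjusted p = 0.39), *Tars* (0.45, adjusted p = 0.44), *Atf3* (-1.52, adjusted p = 0.54) and *Atf5* (0.38, adjusted p = 0.66). The group means of the *Pctp*-/- livers were a median of 105% of those of WT on chow, from 23.1% (*Atf3*) to 149% (*Nupr1*), and 10 of the 34 were under 100%. The value of *Nupr1* is a ratio of levels near 0, at most 0.367 FPKM in each chow liver, and its log2 fold change was 0.09. The genotypes did not overlap for 2 genes, *Atf5* and *Shmt2*, both higher in *Pctp*-/- livers (5.17% of all genes), and for 0 in the other direction (5.38% of all genes). The low value of *Atf3* rested on WT livers that did not resemble each other, with 3.07, 18.9 and 23.5 FPKM against 3.06, 5.0 and 2.44 FPKM in *Pctp*-/- livers. Without the WT chow library of 3.07 FPKM, *Atf3* was called lower (adjusted p = 0.032 from limma), the only call of the group on chow in any alternative.

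On MCD, *Slc3a2*, *Nupr1* and *Pck2* were lower in *Pctp*-/- than in WT livers, and they were 3 of the 34 tested genes, where 0.818% of all genes were called and 0.521% were called lower. *Slc3a2* stood at 18.6 ± 2.00 FPKM in *Pctp*-/- and 36.8 ± 6.91 FPKM in WT livers (SD, n = 3). Its log2 fold change was -0.94 (adjusted p = 0.0076 from limma, standard error 0.13). *Nupr1* stood at 5.01 ± 1.44 and 20.7 ± 9.73 FPKM (SD, n = 3), with a log2 fold change of -1.76 (adjusted p = 0.019 from limma, standard error 0.29). *Pck2* stood at 1.35 ± 0.264 and 2.85 ± 0.519 FPKM (SD, n = 3), with a log2 fold change of -0.71 (adjusted p = 0.024 from limma, standard error 0.13). For each of the 3, every *Pctp*-/- liver was below every WT liver. The call of *Slc3a2* held in 20 of 21 alternatives, that of *Nupr1* in 14 of 21 and that of *Pck2* in 11 of 20. With only the 6 MCD libraries in the fit none of the 3 passed (adjusted p = 0.070 for *Slc3a2* and 0.11 for the others). *Gars* (-0.48, adjusted p = 0.053) and *Mthfd2* (-1.01, adjusted p = 0.054) were next to the threshold.

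All 34 tested genes had a log2 fold change below 0 on MCD, as had 70.3% of all tested genes, and the median was -0.36 against -0.09. With quantile normalization, median-of-ratios scaling or a correction for GC content and length, which bring the median of all genes near 0, 32 of the 34 were below 0. *Cars*, *Shmt2*, *Vldlr* and *Wars* were the genes whose value passed 0 in at least 1 alternative. The groups did not overlap for 22 of the 34, each lower in *Pctp*-/- livers, and for 0 in the other direction, against 21.1% and 5.50% of all genes. An unadjusted p under 0.05 was reached by 21 of the 34 (16.3% of all genes). *Pctp*-/- livers held a median of 74.6% of the WT level on the group means, from 23.3% (*Chac1*) to 94.2% (*Vldlr*), with 6 genes under 50%. *Atf4* itself differed less than the median gene of the group, with 97.0 ± 5.87 against 113 ± 5.12 FPKM (SD, n = 3, -0.22, adjusted p = 0.54). *Asns* (-0.62, adjusted p = 0.11), *Psat1* (-0.80, adjusted p = 0.087), *Trib3* (-0.87, adjusted p = 0.20) and *Chac1* (-1.59, adjusted p = 0.10) had larger values that did not pass. Among 74 other tested genes of the pathway, 0 were called by limma on MCD, 22 had an unadjusted p under 0.05 and 57 were below 0.

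**Figure D4:**
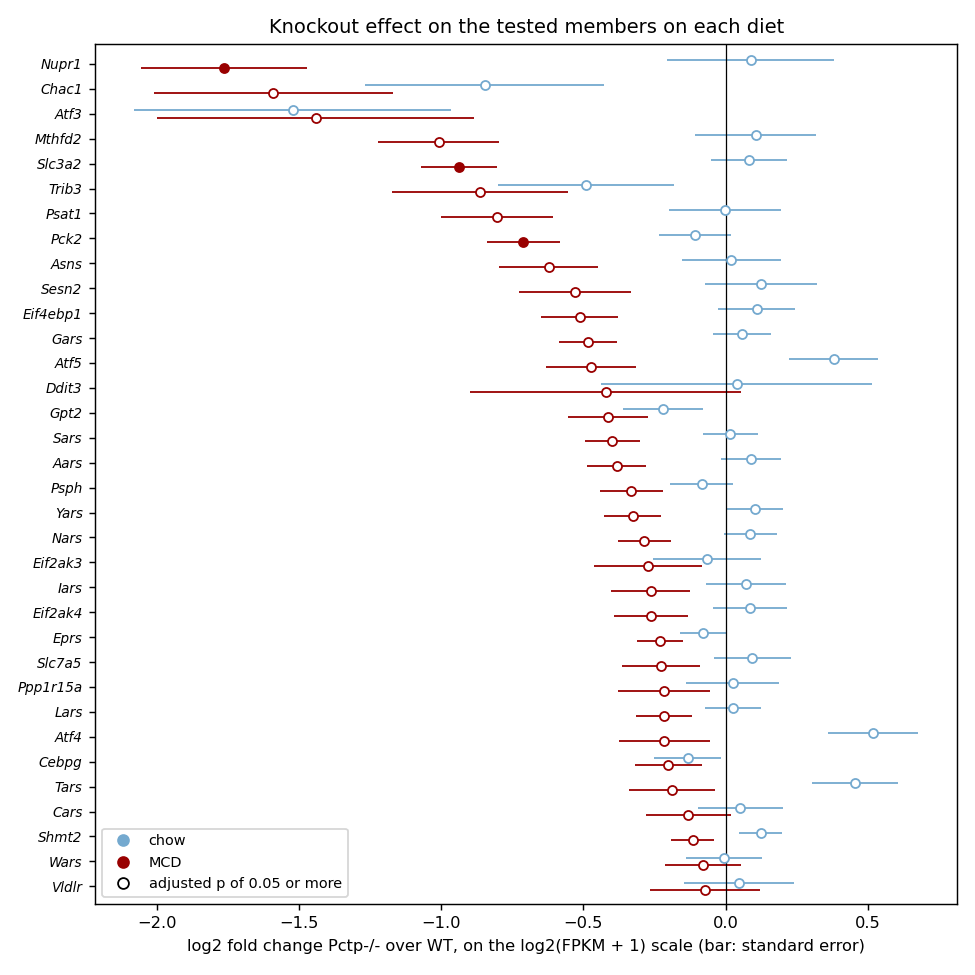
Log2 fold change of Pctp-/- over WT on the log2(FPKM + 1) scale for the 34 tested genes of the response on chow (light blue) and on MCD (dark red), ordered by the value on MCD, with the standard error as a bar and open points for an adjusted p of 0.05 or more. All MCD points lie below 0, from -1.76 (Nupr1) to -0.07 (Vldlr), with 3 filled, and the chow points lie on both sides of 0, with none filled.

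The levels on MCD varied between mice as well as between genotypes. WT MCD replicate 3 had the lowest value of its group for 28 of the 34 genes, where it was the lowest for 44.9% of all tested genes, and without it 8 genes of the group were called lower in *Pctp*-/- livers on MCD. Leaving out each of the other MCD libraries gave 1 or 2 calls. The calls over all genes in these fits are not given here, so the counts are not read as particular to the group. For *Pctp*-/- over WT livers on MCD, 70.3% of all tested genes were below 0 and 16.3% had an unadjusted p under 0.05. Of 10 macrophage and Kupffer cell markers, 10 had a log2 fold change below 0 in *Pctp*-/- livers on MCD and 0 were called (1 at an unadjusted p under 0.05). Their summed level was 292 to 552 FPKM in WT and 301 to 369 FPKM in *Pctp*-/- livers on MCD and 67.2 to 179 FPKM in all chow livers. On MCD relative to chow 9 of the 10 were called higher in WT (34.5% of all genes) and 5 of the 10 in *Pctp*-/- livers (26.0% of all genes). Neutrophil markers, of which 2 of 6 were tested, summed to 17.9 to 22.8 FPKM in WT and 5.78 to 13.8 FPKM in *Pctp*-/- livers on MCD. The 2, *S100a8* (-1.27) and *S100a9* (-0.89), had an unadjusted p under 0.05 and were not called. Lymphocyte markers (3 of 8 tested) summed to 2.46 to 2.67 FPKM in WT and 2.71 to 3.18 FPKM in *Pctp*-/- livers on MCD. Of the 3, 2 were above 0 and 0 called. Cholangiocyte markers (4 of 6 tested) summed to 13.7 to 25.5 FPKM in WT and 13.9 to 16.5 FPKM in *Pctp*-/- livers on MCD. All 4 were below 0 and 0 called. The 10 hepatocyte markers summed to 54333 to 61025 FPKM in WT and 68499 to 74785 FPKM in *Pctp*-/- livers on MCD. Between these groups 3 of the 10 were below 0 (median 0.12), 2 had an unadjusted p under 0.05 and 0 were called. With diet in WT livers 2 were called higher and 5 lower, although the sum on chow was only 41281 to 46887 FPKM. All 8 sinusoidal endothelial markers had a value below 0 in *Pctp*-/- livers on MCD, 1 of them, *Lyve1*, at an unadjusted p under 0.05 (-0.63), and 0 were called. They summed to 82.9 to 103 FPKM in WT and 73.2 to 85.4 FPKM in *Pctp*-/- livers on MCD. Of 8 stellate cell markers, 6 were below 0 and 0 were called in that comparison (1 at an unadjusted p under 0.05). They summed to 140 to 205 FPKM in WT and 141 to 169 FPKM in *Pctp*-/- livers on MCD and 33.3 to 62.4 FPKM in all chow livers. With diet 4 of the 8 were called higher in WT and 3 in *Pctp*-/- livers, against the same 34.5% and 26.0% of all genes. The part of these cell types and of that library in the results was not tested.

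The third question was whether the diet effect itself differed between the genotypes. The comparison uses all 12 libraries and shares them with the 4 comparisons above. By limma 0 of the 34 genes were called (17 at an unadjusted p under 0.05), where 0.0963% of all genes were called and 15.1% had an unadjusted p under 0.05. The diet effect was smaller or more negative in *Pctp*-/- livers for 33 of the 34, as for 64.6% of all genes, with a median difference of -0.39 on the log2 scale against -0.10, and for 31 of the 34 with quantile normalization or median-of-ratios scaling. The adjusted p was lowest for *Slc3a2* (difference -1.02, standard error 0.19, adjusted p = 0.069), followed by *Nupr1* (-1.85, standard error 0.41, adjusted p = 0.0995). For *Atf4* the difference was -0.73 (adjusted p = 0.16), for *Atf5* -0.85 (adjusted p = 0.13) and for *Mthfd2* -1.11 (adjusted p = 0.14). A gene called in one genotype only, such as *Mthfd2*, *Eif4ebp1* and *Yars* in WT, was therefore not shown to respond differently in the other. Such a difference holds the genotype values of both diets. For *Pctp*-/- over WT, *Atf4* had 0.52 on chow and -0.22 on MCD, and *Atf5* 0.38 and -0.47. *Mthfd2* had 0.11 on chow and -1.01 on MCD, and none of these values was called. Without WT MCD replicate 3 the difference passed for 3 genes, and without WT chow replicate 1 for 1 gene.

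The 5 genes under 0.5 FPKM on average over the 12 libraries were not tested. *Slc7a11*, the light chain of the cystine transporter, was listed at 0 in 4 of the 6 chow libraries and was at most 0.00810 FPKM in the others. On MCD it had 0.591, 0.0933 and 0.108 FPKM in WT and 0.121, 0.0448 and 0.0664 FPKM in *Pctp*-/- livers. *Slc7a1*, a cationic amino acid transporter, had 0.0539 to 0.141 FPKM on chow and 1.32, 0.423 and 0.249 FPKM in WT and 0.252, 0.364 and 0.299 FPKM in *Pctp*-/- livers on MCD. *Aldh1l2*, the mitochondrial formyltetrahydrofolate dehydrogenase, had 0.0229 to 0.0759 FPKM on chow and 0.792, 0.277 and 0.218 FPKM in WT and 0.124, 0.148 and 0.163 FPKM in *Pctp*-/- livers on MCD. For these 3 all MCD livers were above all chow livers of their genotype, and the highest WT value was in replicate 1. *Phgdh* and the stanniocalcin gene *Stc2*, at most 0.116 FPKM, did not separate the diets. Some genes share bases with another annotated gene, on the same strand for *Sesn2* and on the opposite strand for *Atf5*, *Ddit3*, *Ppp1r15a*, *Psat1*, *Psph*, *Shmt2*, *Aldh1l2*, *Slc7a5*, *Wars*, *Yars*, *Cars* and *Lars*. The sources used here do not state whether counting used strand, and their values may hold reads of the neighbour.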

How the data were processed

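Liver RNA-seq of 12 mice was analysed, in 4 groups of 3 defined by the labels. Novogene sequenced the libraries, and the authors deposited 1 FPKM value for each gene in each library. The build was mm10 per the labels' processing notes, and the aligner, counter and annotation are not given in the sources used here. A second deposited table holds read counts per library with mapping and quality values in percent, used to describe the libraries. The deposited table has no counts per gene, so count models were not used.

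The table lists 35275 genes, of which 12879 have no FPKM above 0, and the 12466 that average 0.5 FPKM or more were tested. The test was limma (version 3.58.1, under R 4.3.3) on log2(FPKM + 1), in a model of 4 group means with a mean-variance trend. P-values were adjusted after Benjamini and Hochberg over all tested genes, and a call needed an adjusted p under 0.05 and no minimum fold change. The fit was tested on simulated data. The genes of the response and all lists were chosen with earlier results of these data known. Values of every library are given for *Atf4*, for genes called between genotypes and for genes called with an absolute log2 fold change of at least 1 between diets, and *Gars* was added for its promoter. Genes outside the response are named where they passed both diet comparisons at that size. Positions are from GENCODE M21 (GRCm38) and promoters from RefSeq (GRCm38.p6). Replicate numbers name different mice and do not pair them. The alternatives were the pseudocount, the filter, quantile and median-of-ratios scaling, fitting only the groups compared, blocking on replicate number, no mean-variance trend, a fold change limit, leaving out each library and, added later, a correction for GC content and length.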

Additional observations from a re-analysis of the deposited data

Results flagged for a closer look

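*Slc3a2* was singled out because its diet effect had opposite signs in the genotypes: each WT liver on MCD was above each WT liver on chow, and each *Pctp*-/- liver on MCD was below each *Pctp*-/- liver on chow. The difference of the diet effects was -1.02 on the log2 scale and did not pass the test (adjusted p = 0.069 from limma, 0.0062 to 0.20 over 20 alternatives, of which 3 passed).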

How the results depend on the processing

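No called value of a gene changed sign in any alternative. With a minimum absolute log2 fold change of 1, the counts of called genes fell from 22 to 9 for diet in WT, from 26 to 7 for diet in *Pctp*-/- livers and from 3 to 1 for genotype on MCD. For diet in WT, the share of all tested genes called higher fell from 34.5% to 7.93% with that limit. The count for genotype on MCD was also 1 with a pseudocount of 0.1 and with no filter, and 0 with only the libraries of the comparison. The median of the group for diet in WT, 0.67, was 0.56 with no filter, 0.57 with quantile normalization, 0.56 with median-of-ratios scaling and 0.51 with the correction for GC content and length, which was chosen after seeing the data. For diet in *Pctp*-/- livers the median of 0.34 was 0.12 with no filter. For genotype on MCD the median of -0.36 was -0.27 with median-of-ratios scaling and -0.26 with the GC and length correction, and for the difference of diet effects the median of -0.39 was -0.28 with quantile normalization and -0.30 with median-of-ratios scaling. Leaving out 1 library at a time gave 0 to 1 calls for genotype on chow, 1 to 8 for genotype on MCD, 0 to 3 for the difference and a median of 0.17 to 0.40 for diet in *Pctp*-/- livers, lowest without *Pctp*-/- chow replicate 1. Same-numbered livers correlated from -0.10 to 0.22 in their deviations from the group means, over 0.1 in 8 of 18 pairs. A replicate block gave 6 calls for genotype on MCD and 1 for the difference. Apart from the fold change limit for diet in WT, the share of all genes called is not set beside the counts in these alternatives. Over the called genes and all alternatives, 991 values kept their call and 67 lost it, 41 of these for diet in *Pctp*-/- livers. The causes were not tested. The files hold no counts per gene, so the depth behind a gene's FPKM, and with it the precision of genes under 1 FPKM, is unknown, and 3 livers per group limit what could be called.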
